A study of Mus musculus with 2 samples.

Results

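The cells described here are the macrophages of injured mouse muscle with the most RNA of Il1rn, Clec4e, Nlrp3 and Slc7a11. They come from 2 single-cell RNA-seq libraries of the injured tibialis anterior muscle, 1 from the conditional Setdb1 knockout (KO) and 1 from wild-type (WT) mice, 8 to 12 weeks old. Setdb1 is a histone methyltransferase that deposits repressive trimethylation on histone H3, and the series title asks about regeneration and muscle stem cells. Enzymatic digestion was with dispase and collagenase II, cells were sorted on Hoechst and propidium iodide, and libraries were made with 10x Genomics 3′ v2 chemistry. How many animals each library holds, whether animals were pooled, how and when the muscle was injured, and which Cre drives the deletion are not stated in the labels. A macrophage was a barcode with at least 5000 UMIs (unique molecular identifiers, 1 for each RNA molecule captured), at most 10% mitochondrial UMIs, at least 3 UMIs over Csf1r, Adgre1 and Fcgr1, at most 1 over Pdgfra, Cdh5 and Cdh15, and at most 4 over the cell cycle genes Mki67 and Top2a. Of the 7365 macrophages (3862 KO and 3503 WT), the top 15% over both libraries by UMIs per 10000 of the 4 genes were kept. That gave 1105 cells, 657 KO and 448 WT, which are 15% of the macrophages and 8.18% of the 13508 cells of both libraries.

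The 4 genes belong to the early response of a macrophage to damage. Nlrp3 is the sensor of the inflammasome that matures IL-1β, Il1rn encodes the secreted antagonist of the IL-1 receptor, Clec4e encodes Mincle, a C-type lectin receptor for microbial glycolipids and for a protein released by dying cells, and Slc7a11 encodes the cystine importer that feeds glutathione synthesis. In injured muscle, macrophages that descend from infiltrating Ly6C-positive monocytes clear debris and secrete chemokines and IL-1β early, and later take on a reparative state with scavenger and growth factor genes. The 4 genes lie on separate chromosomes of GRCm38, Il1rn (ENSMUSG00000026981) at chr2:24336853-24351494 on the plus strand, Clec4e (ENSMUSG00000030142) at chr6:123281789-123289870 on the minus strand, Nlrp3 (ENSMUSG00000032691) at chr11:59541568-59566956 on the plus strand and Slc7a11 (ENSMUSG00000027737) at chr3:49892526-50443614 on the minus strand.

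Each group had 1 library, so no value below has a replicate check and no test was possible. Intervals in brackets are at 95% and cover counting error only, and each comparison is between these libraries. The KO library held 138667420 UMIs and the WT library 121703522. Setdb1 itself was at 9.53 CPM (counts per 1e6 UMIs) in the 254 KO cells with at least 3 Cdh15 UMIs and at most 1 UMI over Csf1r, Adgre1 and Fcgr1, and at 18.1 CPM in the 567 such WT cells, a ratio of 0.527 [0.392 to 0.700]. Cdh15 marks the muscle lineage. In the score-high macrophages Setdb1 was at 14.99 CPM [12.4 to 17.9] in KO and 11.2 CPM [8.60 to 14.4] in WT cells, a ratio of 1.34 [0.975 to 1.85], so no lower level was seen in KO macrophages. The labels do not state which part of the gene is deleted, and 3′ tags outside it would not report the deletion. No barcode was shared between the KO and WT score-high cells, and 3 were shared among all macrophages.

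The score is a continuous scale and the selection is a range of it, not a cell type. The cut lay at 4.51 UMIs per 10000. The 5 lowest scores inside it ran from 4.512 to 4.523, and the 5 highest outside from 4.461 to 4.506. Within 10% of the cut lay 75 cells inside (39 KO and 36 WT) and 65 outside (37 KO and 28 WT). Selected cells had a median score of 10.7 in KO and 10.5 in WT, a maximum of 104.4 in KO and 76.9 in WT, and a median of 13 UMIs of the 4 genes in both. At the other end, 45.5% of KO and 55.0% of WT macrophages had no UMI of any of the 4. KO cells made up more of the selection. It took 17.0% [15.8 to 18.2] of the KO macrophages and 12.8% [11.7 to 13.9] of the WT macrophages, a ratio of 1.33 [1.18 to 1.503]. Dissociation, sorting and capture were done once per library, and their part in this ratio was not tested.

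**Figure D1:**
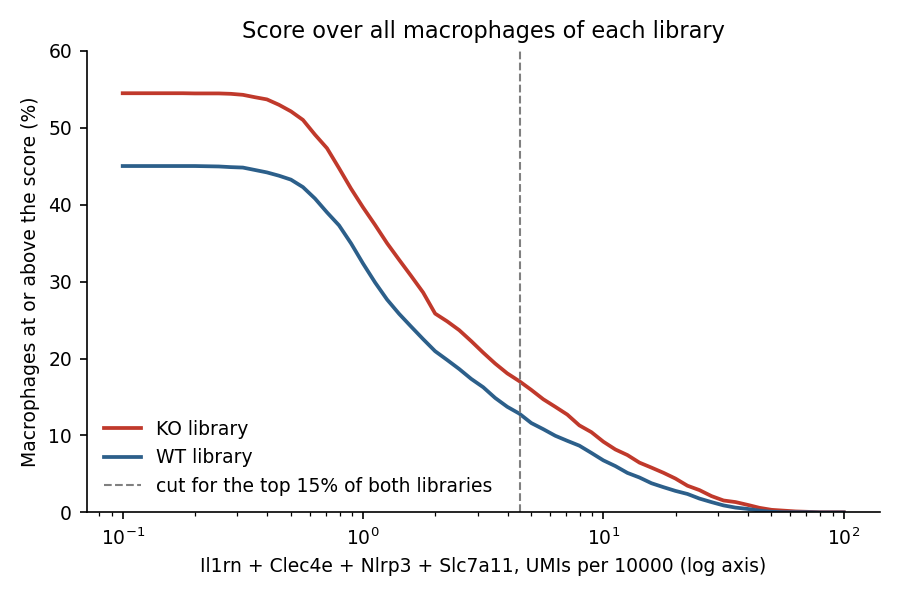
Share of the macrophages of each library (vertical axis, %) at or above a given score (horizontal axis, UMIs of the 4 genes per 10000, log scale), with the cut as a dashed line. The KO curve lies above the WT curve at the cut, where 17.0% of KO and 12.8% of WT macrophages are selected, and no gap in either curve marks the cut.

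The selection rested on all 4 genes. Of the score UMIs, Il1rn gave 40.1% in KO and 41.1% in WT cells, Clec4e 22.6% in KO and 22.8% in WT, Nlrp3 19.9% in KO and 19.7% in WT, and Slc7a11 17.4% in KO and 16.3% in WT. At least 3 of the 4 genes were detected in 61.6% of KO and 60.9% of WT selected cells, and a lone gene in 11.7% of KO and 13.8% of WT cells. Because these genes chose the cells, their levels are a description. Il1rn was at 599 CPM in selected and 31.6 CPM in other KO macrophages, and at 558 CPM in selected and 29.4 CPM in other WT macrophages. When each gene was left out of the score that chose the cells, it still stood higher in the cells chosen by the other 3. Il1rn was then at 449 CPM in selected against 59.2 CPM in other KO cells (7.58-fold) and 419 CPM in selected against 48.7 CPM in other WT cells (8.60-fold). Clec4e differed 12.1-fold in KO and 13.6-fold in WT, Nlrp3 7.59-fold in KO and 11.7-fold in WT, and Slc7a11 11.7-fold in KO and 12.6-fold in WT. The 4 genes thus went together in the same cells of both libraries.

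The gate used Csf1r, Adgre1 and Fcgr1, so their presence follows from it. Of the other macrophage genes examined, all were above 10 CPM, among them Cd68 and C1qa. All 17 genes, the gate's own included, had a summed level of 44017 CPM in KO and 42781 CPM in WT selected cells, against 52877 CPM in the other KO and 54209 CPM in the other WT macrophages. Fcgr1, the high-affinity IgG receptor used in the gate, was at 251 CPM in KO and 400 CPM in WT selected cells, while Adgre1, the F4/80 antigen also used there, was at 353 CPM in KO and 228 CPM in WT. Median depth was 11214 UMIs in KO and 11397.5 UMIs in WT selected cells, and 11678 and 11524 UMIs in the other KO and WT macrophages. After every cell was thinned to 5000 UMIs, selected cells had a median of 1735 genes in KO and 1690 in WT, and other macrophages 1732 in KO and 1664 in WT. Depth and gene number thus hardly separated selected from other cells.

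Markers of other cell types were low. The 17 neutrophil genes summed to 83.4 CPM in KO and 77.6 CPM in WT selected cells, and Ly6g, Ngp, Camp and Elane had no UMI in either library. Of the 122 S100a9 UMIs in KO selected cells, 112 came from a single cell. The 9 dendritic cell genes summed to 58.7 CPM in KO and 62.1 CPM in WT, and the 8 T and NK cell genes to 7.56 CPM in KO and 10.5 CPM in WT, with Cd3e at 0 in both. Fibro-adipogenic RNA differed between the libraries. The 8 markers summed to 622 CPM in KO and 411 CPM in WT selected cells (1117 and 534 CPM in the other KO and WT macrophages), with a per-cell median of 3.09 UMIs per 10000 in KO and 1.97 in WT, and 39 KO cells (5.94%) and 4 WT cells (0.893%) had over 10 per 10000. Their part in the results below was not tested beyond leaving these cells out, with the outcome given in the direct comparison of KO and WT.

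Against the other macrophages, most NF-κB and antioxidant genes and several chemokines were higher in the selected cells. Of 2485 genes counted in both libraries (at least 50 CPM in selected or other cells and at least 20 UMIs over both), 332 (13.4%) were over 1.5-fold higher in both on the CPM + 5 scale and 52 (2.09%) were lower. By any amount, 1250 of 2702 genes counted within KO and 1277 of 2567 within WT were higher. The cells were chosen by genes of the same cells, so these counts describe the selection and test nothing. A gene could be counted through its level in selected cells alone, so counts of list genes higher in them are partly set by this rule. Below, a fold or median given for selected cells is selected over other macrophages within the same library.

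Of the chemokines counted, 10 of 15 were higher within KO, 7 of them past 1.5-fold, and 13 of 16 within WT, 9 of them past 1.5-fold, with median log2 ratios of 0.47 in KO and 1.07 in WT. Past 1.5-fold lower were 1 in KO and 2 in WT. The highest were 3 neighbouring chemokines that draw neutrophils through the receptor CXCR2. Cxcl3 was at 230 CPM in selected against 9.41 CPM in other KO macrophages (24.4-fold [21.8 to 27.3]), and at 142 CPM in selected against 3.47 CPM in other WT cells (41.1-fold [34.2 to 49.6]). Cxcl2 was at 10396 CPM in selected against 895 CPM in other KO cells (11.6-fold) and 7705 CPM in selected against 460 CPM in other WT cells (16.7-fold). Cxcl1 was at 780 CPM in selected against 95.3 CPM in other KO cells (8.19-fold) and 307 CPM in selected against 34.2 CPM in other WT cells (8.99-fold). All 3 were thus higher in the selected cells of both libraries. The genes lie on chromosome 5 of GRCm38, Cxcl3 (ENSMUSG00000029379) at chr5:90786103-90789600, Cxcl1 (ENSMUSG00000029380) at chr5:90891241-90893115 and Cxcl2 (ENSMUSG00000058427) at chr5:90903871-90905938, all on the plus strand.

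Their promoters are shown because the 3 genes were high together and hold the same 10-base motif. The motif searched, a form of the NF-κB site, was GGGA, then any base (N), then TTTCC, on both strands, in the 250 bases before to 50 bases after the RefSeq start site (GRCm38.p6), and it was chosen after the values were seen. Of the 12 genes highest in selected cells, 9 had a promoter found, and 3 of these held it (33.3%), all 3 of them these chemokines. It occurred in 2 of 19 genes of the NF-κB list with a promoter found (10.5%) and in 0 of the 4 score genes. Over all genes it occurred in 126 of 27025 (0.466%). The 12 genes were ranked from these same data, and the 3 are neighbouring chemokine genes, so these shares test nothing. The 2 on the NF-κB list were Nfkb2 and Nfkbia, which encodes the inhibitor IκBα. The 150 bases before each RefSeq start site are given 5′ to 3′ on the gene's strand, with the match in capitals. A match is a description of letters and not of binding. The windows are chr5:90785951-90786100 (plus) for Cxcl3, chr5:90891095-90891244 (plus) for Cxcl1, chr5:90903749-90903898 (plus) for Cxcl2 and chr12:55492648-55492797 (minus) for Nfkbia, where the match lies on the opposite strand.
Cxcl3: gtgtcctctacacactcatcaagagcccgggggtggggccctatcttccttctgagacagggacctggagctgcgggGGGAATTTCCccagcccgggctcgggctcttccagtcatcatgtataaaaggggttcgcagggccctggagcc
Cxcl1: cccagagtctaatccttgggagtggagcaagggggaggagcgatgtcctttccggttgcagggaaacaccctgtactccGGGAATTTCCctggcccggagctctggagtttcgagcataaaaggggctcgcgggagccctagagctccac
Cxcl2: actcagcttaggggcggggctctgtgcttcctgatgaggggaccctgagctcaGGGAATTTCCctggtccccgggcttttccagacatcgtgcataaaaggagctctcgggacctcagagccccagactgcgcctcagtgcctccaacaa
Nfkbia: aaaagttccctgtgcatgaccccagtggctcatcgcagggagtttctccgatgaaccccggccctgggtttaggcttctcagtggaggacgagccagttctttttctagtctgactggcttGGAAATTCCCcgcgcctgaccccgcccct
The match began 73 bases before the RefSeq start of Cxcl3, 71 before that of Cxcl1 and 97 before that of Cxcl2. The gene spans given above come from GENCODE. For Cxcl1 and Cxcl2 the RefSeq starts (90891245 and 90903899) lie inside those spans, so their windows overlap the genes. Distances from the GENCODE starts differ. In Nfkbia it began 29 bases before the start.

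Signalling genes of the NF-κB pathway were higher in the selected cells as a group. All 22 members of the list counted were higher in both libraries, 19 past 1.5-fold within KO and 18 in WT, with a median log2 ratio of 1.28 in KO and 1.39 in WT, against -0.03 in KO and -0.00 in WT over all genes counted, of which 14.6% in KO and 15.9% in WT were past 1.5-fold upward. Nfkbia, the feedback inhibitor, was at 1746 CPM in selected against 614 CPM in other KO cells (2.84-fold) and 1510 CPM in selected against 479 CPM in other WT cells (3.15-fold). Rel, the c-Rel subunit, was 3.91-fold higher within KO and 3.77-fold within WT. Tnfaip3, which encodes the ubiquitin editor A20 that ends the signal, was 3.99-fold higher within KO and 4.88-fold within WT. Tnip3, which encodes an A20-binding protein, was 7.39-fold higher within KO and 8.09-fold within WT.

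Genes of the interleukin-1 and inflammasome list, which holds no score gene, went either way. Of those counted, 5 of 11 were higher within KO and 5 of 10 within WT, 4 of them past 1.5-fold in each library. These 4 were both IL-1 ligands, Casp4, which encodes the caspase of the non-canonical inflammasome (2.30-fold within KO and 2.23-fold within WT), and Mefv, which encodes pyrin (2.33-fold within KO and 2.56-fold within WT). Il1b was at 1260 CPM in selected against 277 CPM in other KO cells (4.54-fold) and 995 CPM in selected against 206 CPM in other WT cells (4.83-fold). Il1a was at 57.7 CPM in selected against 11.7 CPM in other KO cells (4.91-fold) and 56.5 CPM in selected against 9.92 CPM in other WT cells (5.69-fold). Casp1, the protease that cleaves pro-IL-1β, was at 44.1 CPM in selected against 56.0 CPM in other KO cells and 57.4 CPM in selected against 59.4 CPM in other WT cells. Pycard, the adaptor between Nlrp3 and caspase-1, was lower, 0.702-fold within KO and 0.762-fold within WT. Txnip, a thioredoxin-binding protein induced by glucose, was 0.243-fold within KO and 0.254-fold within WT.

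Thinned to 5000 UMIs per cell, Il1b was detected in 65.6% of KO and 62.9% of WT selected cells, and in 30.7% of KO and 25.1% of WT other macrophages. Unthinned, the shares in selected cells were 74.4% in KO and 69.9% in WT. In cells with at least 3 Pdgfra UMIs, which should lack Il1b, the thinned shares were 2.58% in KO and 2.49% in WT, at median depths of 33344.5 UMIs in KO and 23849 UMIs in WT before thinning. The Il1b shares in macrophages thus lay above that background. For Cxcl1 the Pdgfra cells were not a background, since 63.5% of them in KO and 56.4% in WT had a UMI, against 44.9% of KO and 23.2% of WT selected cells.

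Genes of oxidative stress and glutathione formed another block. Several are known targets of NRF2, which protects against oxidants, but the list is not defined by NRF2 and its activity was not tested. Of 19 counted, 17 were higher in both libraries, 11 past 1.5-fold within KO and 12 in WT, with medians of 0.74 in KO and 0.89 in WT on the log2 scale. Srxn1, the sulfiredoxin that repairs peroxiredoxins, was at 154 CPM in selected against 19.7 CPM in other KO cells (7.83-fold) and 135 CPM in selected against 16.6 CPM in other WT cells (8.16-fold). Txnrd1, thioredoxin reductase, was at 467 CPM in selected against 65.7 CPM in other KO cells (7.11-fold) and 381 CPM in selected against 45.3 CPM in other WT cells (8.42-fold). Slc7a11, part of the score, is known as an NRF2 target too, and with it left out of the score Srxn1 still differed 6.76-fold within KO and 6.71-fold within WT. Nfe2l2, the gene of NRF2 itself, was 3.05-fold higher within KO and 3.37-fold within WT, and Hmox1, haem oxygenase, 2.24-fold within KO and 2.18-fold within WT. Gclm, a subunit of the enzyme that starts glutathione synthesis, was 1.98-fold higher within KO and 1.93-fold within WT.

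Most secreted regulators counted were higher in the selected cells. Of the cytokines and growth factors, 11 of 14 counted were higher in KO and 10 of 12 in WT, with median log2 ratios of 1.16 in KO and 1.49 in WT. Il10, the anti-inflammatory cytokine, was at 313 CPM in selected against 57.3 CPM in other KO cells (5.46-fold) and 225 CPM in selected against 35.8 CPM in other WT cells (6.29-fold). Tnf was at 171 CPM in selected against 65.0 CPM in other KO cells (2.63-fold) and 191 CPM in selected against 50.3 CPM in other WT cells (3.80-fold). The pro-inflammatory and the anti-inflammatory cytokine were thus both higher in selected cells. Vegfa, the angiogenic factor, was 4.52-fold higher within KO and 6.71-fold within WT, Thbs1, thrombospondin 1, 4.79-fold within KO and 5.85-fold within WT, and Hbegf, an EGF receptor ligand, 4.30-fold within KO and 4.51-fold within WT. Spp1, osteopontin, went the other way, at 2246 CPM in selected against 3054 CPM in other KO cells and 2373 CPM in selected against 2679 CPM in other WT cells.

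Other leading genes were Ptgs2, cyclooxygenase 2 (5.54-fold within KO and 7.84-fold within WT), Mmp19, a matrix metalloprotease (6.69-fold within KO and 5.91-fold within WT), Kdm6b, a demethylase of histone H3 lysine 27 (5.47-fold within KO and 6.25-fold within WT), and Jdp2, an AP-1 family repressor (6.68-fold within KO and 5.55-fold within WT). Bcl2a1d, an anti-apoptotic gene, was 6.43-fold higher within KO and 8.30-fold within WT, but it has near-identical copies between which counting can split reads, so its value is uncertain. Among surface receptors, Cd14, the lipopolysaccharide co-receptor, was 5.07-fold higher within KO and 5.16-fold within WT. Clec4d, the neighbour and partner of Mincle, was at 285 CPM in selected against 84.6 CPM in other KO cells and 281 CPM in selected against 76.3 CPM in other WT cells. Tlr2 was 2.57-fold higher within KO and 3.20-fold within WT, and Plaur, the urokinase receptor, 3.98-fold within KO and 4.94-fold within WT.

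**Figure D2:**
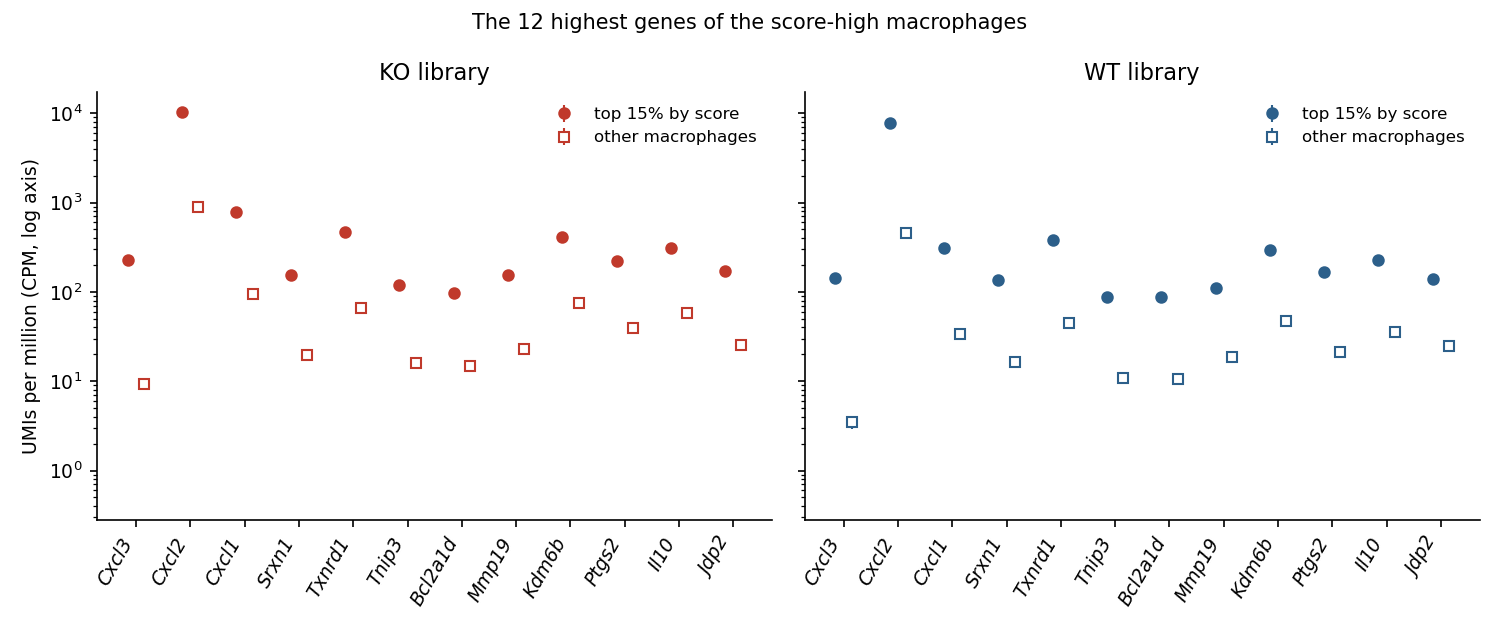
Levels (vertical axis, CPM, log scale) of the 12 genes highest in selected cells, in the KO library (left) and the WT library (right), with selected cells as filled circles and other macrophages as open squares; bars are 95% counting intervals, mostly smaller than the symbols. All 12 genes are higher in selected cells of both libraries. Folds run from Il10 at 5.46-fold to Cxcl3 at 24.4-fold in KO, and from Jdp2 at 5.55-fold to Cxcl3 at 41.1-fold in WT.

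Past 1.5-fold lower were 3.18% of genes counted in KO and 4.32% in WT. Genes lower in the selected cells included transcription factors, complement and most resident-type macrophage genes. Klf2, a transcription factor that restrains NF-κB, was at 206 CPM in selected against 676 CPM in other KO cells (0.305-fold) and 150 CPM in selected against 604 CPM in other WT cells (0.248-fold). Hes1, a Notch target, was at 152 CPM in selected against 417 CPM in other KO cells and 94.5 CPM in selected against 495 CPM in other WT cells. Jun, an AP-1 subunit, was 0.417-fold within KO and 0.429-fold within WT, and Tsc22d3, the glucocorticoid-induced leucine zipper, 0.368-fold within KO and 0.426-fold within WT. Rhob, a small GTPase, was 0.420-fold within KO and 0.422-fold within WT. Of 14 resident-type and reparative genes, 11 were lower within KO and 12 within WT, with median log2 ratios of -0.39 in KO and -0.55 in WT. Among the lower were the transcription factor gene Maf (0.529-fold within KO and 0.434-fold within WT) and the folate receptor gene Folr2 (0.622-fold within KO and 0.624-fold within WT). The remaining 3 within KO and 2 within WT were higher. The resident-type gene Mrc1 was slightly higher, 1.14-fold [1.10 to 1.18] within KO and 1.09-fold [1.04 to 1.15] within WT. C1qa, a chain of complement C1q, was at 4576 CPM in selected against 6315 CPM in other KO cells and 4283 CPM in selected against 6508 CPM in other WT cells. Ccl8, a monocyte chemokine of resident-type macrophages, was 0.55-fold within KO and 0.598-fold within WT. The list of MHC class II genes and Cx3cr1 was slightly higher as a group. In each library 6 of its 8 genes were higher, with median log2 ratios of 0.26 in KO and 0.12 in WT. Cx3cr1 was lower, at 222 CPM in selected against 285 CPM in other KO cells and 105 CPM in selected against 178 CPM in other WT cells. H2-Aa was at 4044 CPM in selected against 3262 CPM in other KO cells and 4069 CPM in selected against 3556 CPM in other WT cells.

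These contrasts were graded, not stepwise. All macrophages were split into 9 bins of score, the lowest with no UMI of the 4 genes and the highest from 12.8 UMIs per 10000 upward, which lies inside the selection. Cxcl2 was at 16815 CPM in the top and 544 CPM in the bottom bin of the KO library, and at 12837 and 253 CPM in those of the WT library. Txnrd1 was at 682 and 42.3 CPM in the top and bottom KO bins, and at 557 and 30.6 CPM in the WT ones. C1qa ran the other way, with 4031 and 6682 CPM in the top and bottom KO bins and 4051 and 6801 CPM in the WT ones. Cxcl2 was higher in KO than in WT in 9 of 9 bins, with a KO over WT ratio of 1.31 in the top and 2.15 in the bottom bin. Isg15, an interferon-induced ubiquitin-like gene, was lower in KO in 9 of 9 bins, and its KO over WT ratio was 0.262 in the top and 0.538 in the bottom bin. Within the KO library it was nearly level from bottom to top (404 and 387 CPM), while in the WT library it was at 750 CPM in the bottom and 1477 CPM in the top bin.

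**Figure D3:**
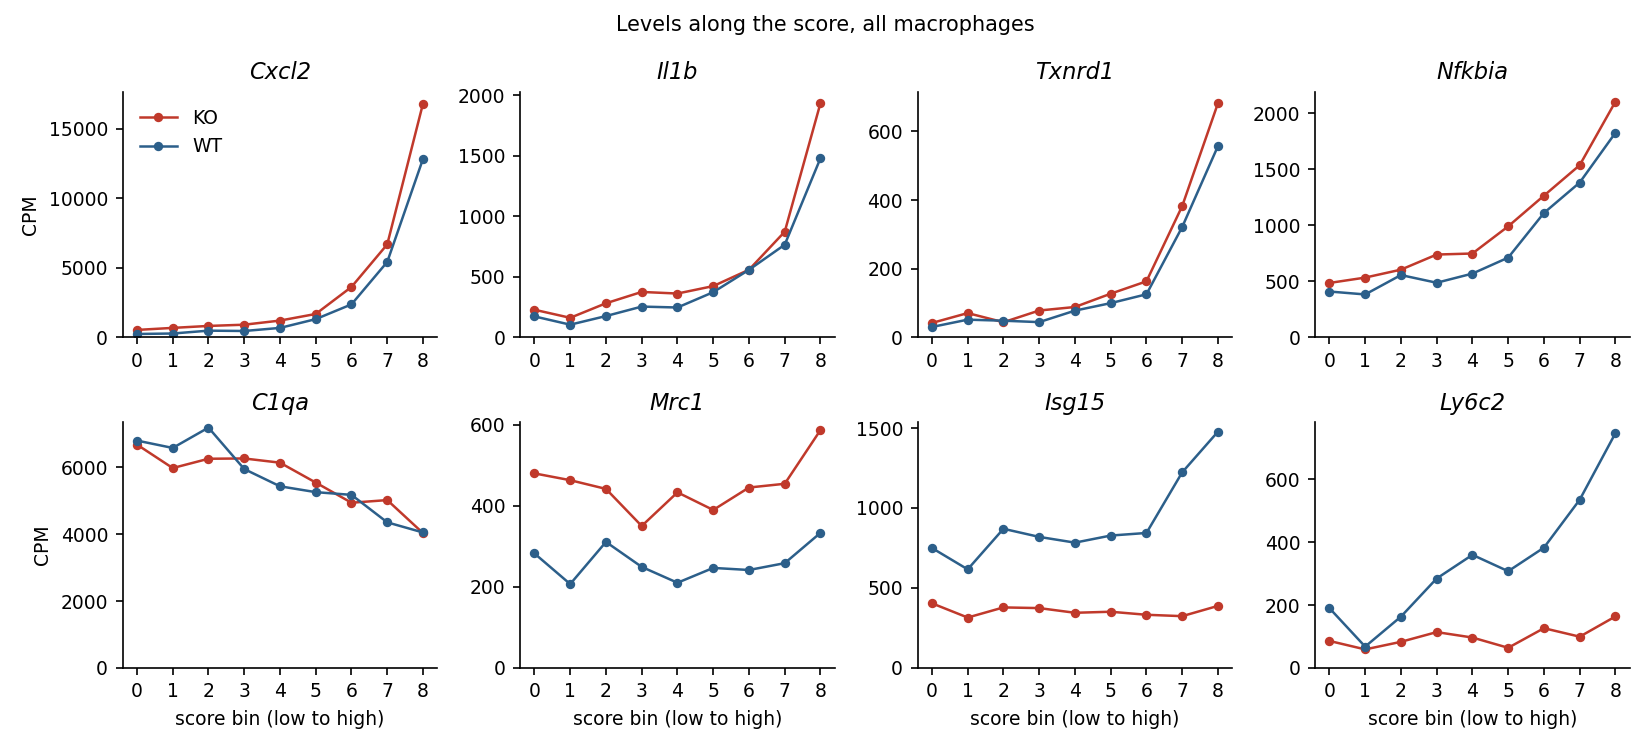
Levels (vertical axes, CPM) of 8 genes over 9 bins of macrophages ordered from the lowest to the highest score (horizontal axes), KO in red and WT in blue. Cxcl2, Il1b, Txnrd1 and Nfkbia climb with the score in both libraries and C1qa declines, while Isg15 and Ly6c2 climb mainly in the WT library, where Isg15 reaches 1477 CPM against 387 CPM in the KO library. Mrc1 is somewhat higher in the top than in the bottom bin, 1.22-fold in KO and 1.18-fold in WT.

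The selected cells differed among themselves in how much of the chemokine RNA they held. Cxcl2 had a median of 54.9 UMIs per 10000 in KO and 25.2 in WT selected cells, and the 90th percentile was 308 in KO and 220 in WT, while 88.4% of KO and 81.9% of WT cells had any UMI of it. The 5 cells with the most held 5.94% of its UMIs in KO and 10.2% in WT. Il10 was found in 43.8% of KO and 36.2% of WT selected cells, Ptgs2 in 44.9% of KO and 39.7% of WT cells, and Cxcl3 in 28.8% of KO and 20.8% of WT cells, all unthinned. Thinned, Il10 was found in 35.3% of KO and 28.6% of WT selected cells, against 0.645% of KO and 0.552% of WT Pdgfra cells.

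The selection cut across other programmes of the same macrophages. Of the selected cells, 10.4% in KO and 34.2% in WT were also among the top 15% of macrophages by Ly6c2 and Plac8, genes of infiltrating monocytes. Of the other macrophages, 6.55% in KO and 22.1% in WT were. By Mrc1, F13a1 and Cbr2, genes of resident-type macrophages, the shares of selected cells were 17.5% in KO and 9.60% in WT, and those of other macrophages 18.2% in KO and 11.9% in WT. By Isg15, Ifit3 and Rsad2, they were 7.46% in KO and 27.7% in WT for selected cells, and 8.74% in KO and 21.3% in WT for other macrophages. The shares of selected cells differed less between the libraries for the other sets compared. By H2-Aa, H2-Ab1 and Cx3cr1, 16.0% of selected cells in KO and 14.5% in WT were in the top 15%, against 14.2% of other macrophages in KO and 15.7% in WT. By Gpnmb, Fabp5 and Trem2, 10.96% of selected cells in KO and 14.5% in WT were, against 15.4% of other macrophages in KO and 15.5% in WT.

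KO and WT selected cells were then compared directly. Of 2588 genes counted, 130 (5.02%) were past 1.5-fold, 49 (1.89%) higher in KO and 81 (3.13%) lower. By any amount, 1488 were higher in KO and 1100 lower. In the other macrophages, 85 of 2456 genes (3.46%) were past 1.5-fold, 40 (1.63%) higher in KO and 45 (1.83%) lower. By any amount, 1429 were higher there and 1027 lower. A gene could be counted through 1 library alone, so counts of list genes higher or lower in KO are partly set by this rule. The share of calls that were higher in KO was 37.7% here, 27.5% with scaling by the median ratio of genes, 25.8% with a pseudocount of 20 CPM, 49.0% with a minimum of 10 CPM and 50.4% with no minimum. Without macrophages of over 10 fibro-adipogenic marker UMIs per 10000, which left 618 KO and 444 WT selected cells, this share was 42.5%. Interferon-stimulated and monocyte genes were lower in KO, and chemokines of the Cxcl1 group, growth factors and resident-type genes were higher.

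The interferon-stimulated genes were lower in KO throughout. Of 37 counted out of 50 listed, all 37 were lower in KO and 30 were past 1.5-fold, with a median log2 ratio of -1.003 against 0.04 over all genes. Some, such as Isg20 and Mx1 below, reached the minimum of 50 CPM in WT alone, so these counts are partly set by the counting rule. In the other macrophages 38 of 39 were lower, 25 past 1.5-fold, with a median of -0.66. Isg15 (ENSMUSG00000035692, chr4:156199424-156200818, minus strand) was at 356 CPM in KO and 1215 CPM in WT selected cells, a ratio of 0.293 [0.281 to 0.306], against 0.490 in the other macrophages. Ifit3, an RNA-binding antiviral protein gene, was at 50.2 CPM in KO and 216 CPM in WT (0.232 [0.207 to 0.261]). Irf7, the transcription factor that amplifies type I interferon, was at 263 CPM in KO and 744 CPM in WT (0.354 [0.335 to 0.373]). All 3 were therefore lower in KO by more than their counting intervals.

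Other leading genes of this kind were Isg20, an antiviral exonuclease (24.1 CPM in KO and 108 CPM in WT), Mx1, an interferon-induced GTPase (16.1 CPM in KO and 67.1 CPM in WT), Ifit2 (46.2 CPM in KO and 163 CPM in WT), Phf11b (41.3 CPM in KO and 165 CPM in WT) and Ly6a, the Sca-1 antigen (210 CPM in KO and 724 CPM in WT). Oasl1 was nearer to level, with a KO over WT ratio of 0.615. Within the KO library Isg15 was slightly lower in selected than in other macrophages (0.951-fold [0.913 to 0.990]), while in the WT library it was 1.59-fold higher [1.55 to 1.63]. Thinned, Isg15 was detected in 50.8% of KO and 69.6% of WT selected cells (unthinned 66.7% in KO and 81.5% in WT). It was found in 38.1% of KO and 61.05% of WT Pdgfra cells, and no difference was read from these shares. The 5 cells with the most held 9.80% of its UMIs in KO and 13.7% in WT.

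Chemokines went both ways. Of 16 counted, 7 were higher and 9 lower in KO, 3 and 5 of them past 1.5-fold, and the median was -0.19 against 0.04 over all genes. Cxcl1 was at 780 CPM in KO and 307 CPM in WT selected cells, a ratio of 2.54 [2.41 to 2.68], and 2.79 in the other macrophages. Cxcl2 was at 10396 CPM in KO and 7705 CPM in WT (1.35 [1.33 to 1.37]), and Cxcl3 at 230 CPM in KO and 142 CPM in WT (1.61 [1.48 to 1.76]). These 3 genes and Nfkbia, whose promoters are printed above, were higher in KO and higher in score-high cells. The 4 score genes, which hold no match, were also higher in KO, and a link between the motif and these levels was not tested. Cxcl9 (ENSMUSG00000029417, chr5:92321347-92328079, minus strand), which is induced by interferon-γ and recruits T cells, was at 12.2 CPM in KO and 174 CPM in WT, a ratio of 0.070 [0.056 to 0.087]. In the other macrophages its ratio was 0.675. Few cells made up these levels. Cxcl9 UMIs came from 35 KO and 61 WT selected cells, with 66.0% of them in KO and 65.8% in WT held by 5 cells, and without those 5 of each library the ratio was 0.069.

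Ccl5, a T cell and monocyte chemokine, was at 60.99 CPM in KO and 268 CPM in WT (0.228 [0.205 to 0.252]), with 57.0% of its UMIs in 5 KO cells and 40.0% in 5 WT cells. Ccl2, the ligand of CCR2 that recruits monocytes, was at 548 CPM in KO and 764 CPM in WT (0.717 [0.687 to 0.748]). Ccl4 was at 1182 CPM in KO and 1758 CPM in WT (0.672 [0.654 to 0.692]). Cxcl10, which like Cxcl9 signals through CXCR3, was at 213 CPM in KO and 414 CPM in WT (0.514 [0.482 to 0.548]). Other CC chemokines were slightly higher in KO, among them Ccl8 at 1149 CPM in KO and 1055 CPM in WT (1.09 [1.05 to 1.13]) and Ccl7 at 690 CPM in KO and 598 CPM in WT (1.15 [1.11 to 1.21]). The CC family thus did not go one way.

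Monocyte genes were lower in KO and resident-type genes higher. Ly6c2 was at 131 CPM in KO and 617 CPM in WT selected cells (0.212 [0.198 to 0.228]), and Plac8 at 159 CPM in KO and 696 CPM in WT (0.229 [0.215 to 0.244]). Ccr2, the chemokine receptor of the same monocytes, was at 228 CPM in KO and 193 CPM in WT (1.18 [1.09 to 1.27]), so the list did not go one way. Of its 11 genes counted, 7 were lower in KO, 6 of them past 1.5-fold, with a median of -0.80. Thinned, Ly6c2 was found in 19.9% of KO and 35.9% of WT selected cells (unthinned 27.1% in KO and 41.3% in WT), against 1.29% of KO and 1.66% of WT Pdgfra cells.

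Of the 14 resident-type and reparative genes counted, 13 were higher in KO, 6 past 1.5-fold, with a median of 0.48 in selected and 0.20 in other macrophages. Mrc1, the mannose receptor, was at 514 CPM in KO and 290 CPM in WT (1.78 [1.67 to 1.88]). Fcrls, an Fc receptor-like gene, was at 370 CPM in KO and 135 CPM in WT (2.75 [2.54 to 2.98]), and F13a1, a coagulation factor subunit, at 293 CPM in KO and 131 CPM in WT (2.23 [2.05 to 2.42]). Cx3cr1, the fractalkine receptor, which is listed with the MHC class II genes, was at 222 CPM in KO and 105 CPM in WT (2.11 [1.92 to 2.33]). Mgl2, a galactose-binding lectin, was at 62.6 CPM in KO and 17.6 CPM in WT (3.57 [2.86 to 4.48]), and Pf4, platelet factor 4, at 1809 CPM in KO and 1055 CPM in WT (1.71 [1.66 to 1.77]). Mrc1 was detected in 64.8% of KO and 44.6% of WT selected cells after thinning (unthinned 74.1% in KO and 58.7% in WT), and in 2.26% of KO and 0.829% of WT Pdgfra cells. Vcam1, an integrin ligand, was 1.89-fold higher in KO, Itga6, an integrin subunit, 1.93-fold, and Gdf3, a TGF-β family ligand known to support muscle regeneration, 2.04-fold.

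**Figure D4:**
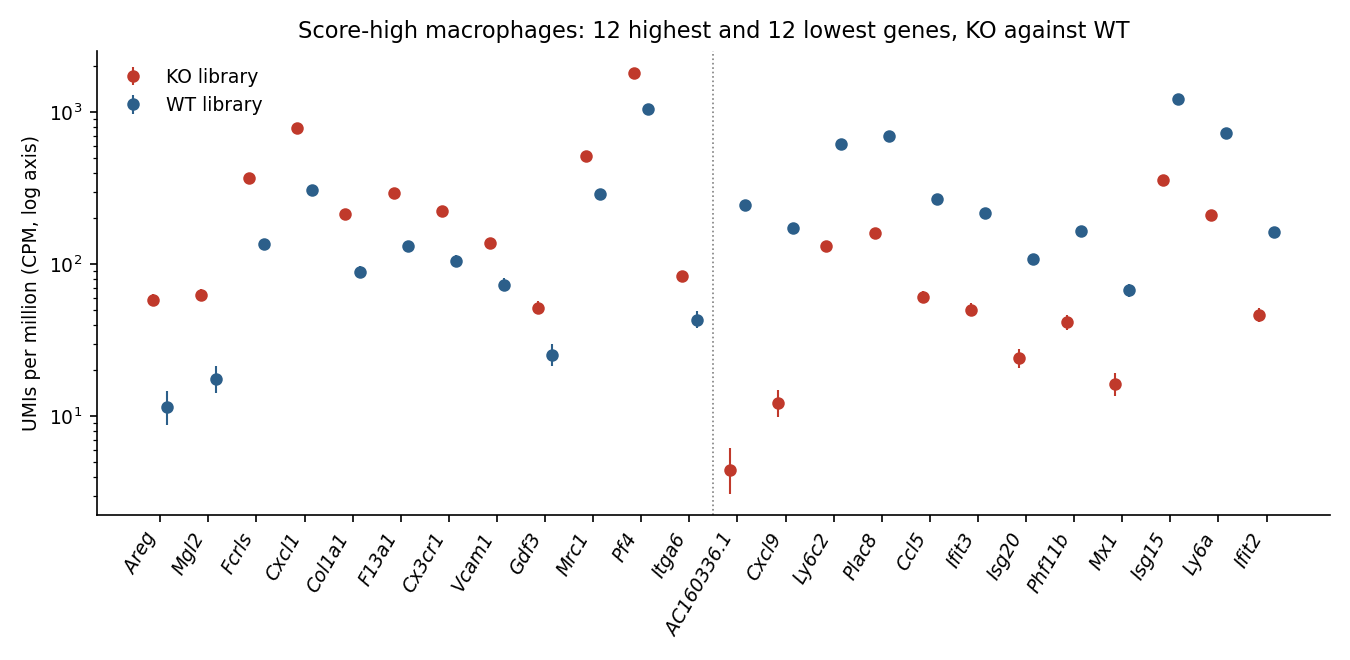
Levels (vertical axis, CPM, log scale) in selected cells of the KO (red) and WT (blue) libraries for the 12 genes highest in KO (left of the dotted line) and the 12 lowest (right); bars are 95% counting intervals. Isg15 stands at 356 CPM in KO and 1215 CPM in WT, and Cxcl1 at 780 CPM in KO and 307 CPM in WT.

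The score's own neighbourhood differed less between the libraries. The 4 score genes were all slightly higher in KO selected cells, with ratios of 1.07 for Il1rn, 1.09 for Clec4e, 1.11 for Nlrp3 and 1.17 for Slc7a11, and the selection used these values. Il1b was at 1260 CPM in KO and 995 CPM in WT (1.27 [1.22 to 1.31]). Of 23 NF-κB genes, 21 were higher in KO, 0 past 1.5-fold, with a median of 0.24, and in the other macrophages 10 of 10 were higher with a median of 0.35. Tnfaip3 was at 253 CPM in KO and 181 CPM in WT (1.40 [1.29 to 1.51]). Tnf was at 171 CPM in KO and 191 CPM in WT (0.893 [0.824 to 0.969]) in selected cells, but 1.29-fold higher in KO in the other macrophages, and its ratio was 1.05 in the top 25% by score. Of 19 oxidative stress genes, 8 were higher and 11 lower, with a median of -0.04.

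Growth factor genes were higher in KO. Of 14 cytokine and growth factor genes counted, 12 were higher and 5 past 1.5-fold, with a median of 0.29 in selected and 0.41 in other macrophages. Vegfa was at 121 CPM in KO and 65.5 CPM in WT (1.85 [1.64 to 2.10]), Thbs1 at 837 CPM in KO and 541 CPM in WT (1.55 [1.48 to 1.62]), and Hbegf at 142 CPM in KO and 88.5 CPM in WT (1.60 [1.44 to 1.78]). Areg (ENSMUSG00000029378, chr5:91139599-91148432, plus strand), the EGF receptor ligand amphiregulin, was at 58.1 CPM in KO and 11.4 CPM in WT (5.09 [3.91 to 6.74]). It came from 44 KO and 17 WT selected cells, with 50.8% of its UMIs in KO and 74.6% in WT held by 5 cells, and the ratio without those was 9.86. Areg therefore rests on few cells in both libraries.

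**Figure D5:**
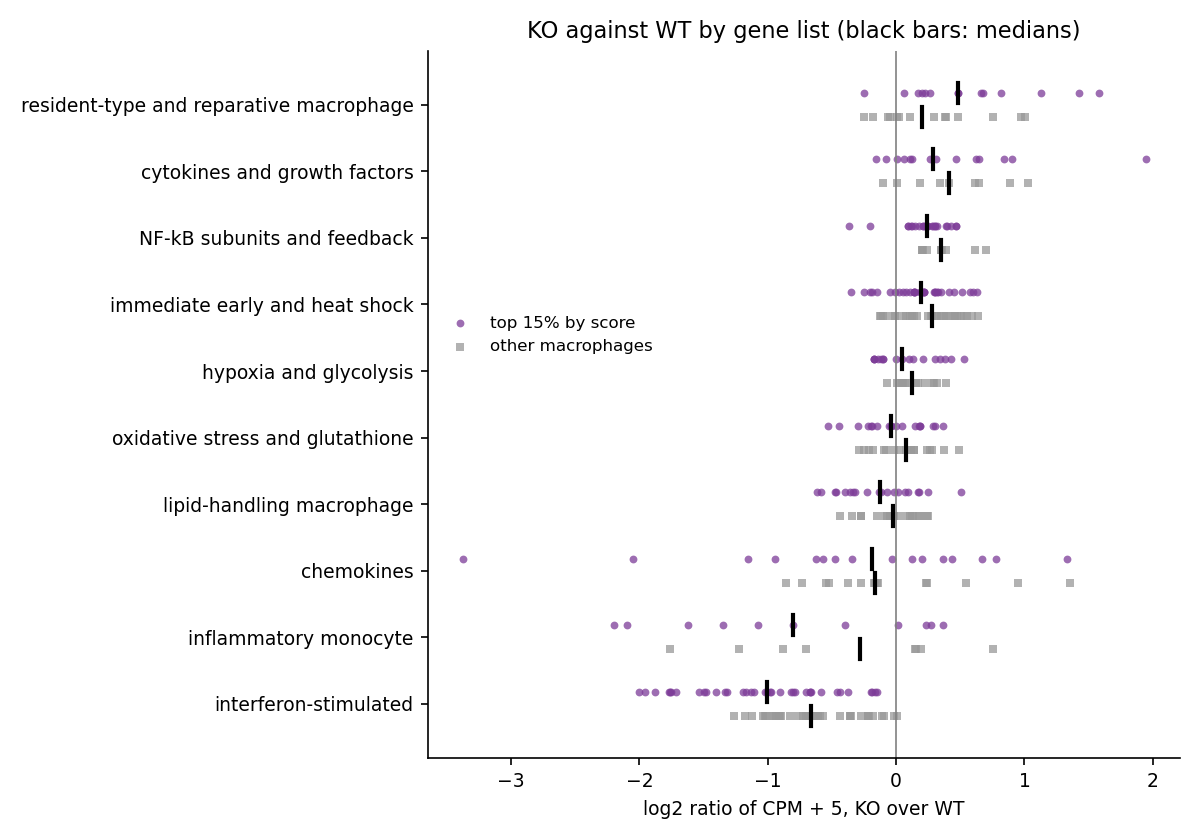
Log2 ratio of CPM + 5, KO over WT (horizontal axis), of each gene counted in 10 lists, for selected cells (purple circles) and other macrophages (grey squares), with black bars at the medians. Interferon-stimulated genes lie lowest in selected cells, with a median of -1.003, and resident-type genes highest, with a median of 0.48.

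Of the other lists, none had more than 3 genes past 1.5-fold in 1 direction in the KO against WT comparison of selected cells. Over all genes counted, 1488 of 2588 were higher in KO, with a median of 0.04. Pattern recognition receptors had a median log2 ratio of 0.31, with 10 of 11 higher in KO. Cytokine signalling genes had one of 0.20, with 12 of 14 higher, and heterochromatin genes one of 0.36, with 3 of only 4 counted higher. The fibro-adipogenic markers, of which 4 were counted, had a median of 0.65. Lists of amino acid and ER stress, eicosanoid, coagulation and matrix protease genes had medians from -0.12 to 0.16. Lipid-handling genes had a median of -0.12 (7 of 20 higher in KO), with Lgals3, galectin 3, at 2794 CPM in KO and 4296 CPM in WT and Plin2, a lipid droplet protein, at 622 CPM in KO and 939 CPM in WT. Hypoxia and glycolysis genes had a median of 0.05, and the list of MHC class II genes and Cx3cr1 one of -0.04. Immediate early and heat shock genes, which tissue dissociation can induce, had a median of 0.20, with 25 of 32 higher in KO. Fos was at 1126 CPM in KO and 843 CPM in WT, and Atf3 at 939 CPM in KO and 1042 CPM in WT. The part of dissociation in these values was not tested.

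Selected cells were also compared inside and outside the top 15% by Ly6c2 and Plac8. Outside that set, in 589 KO and 295 WT selected cells, Isg15 was at 297 CPM in KO and 797 CPM in WT (0.373 [0.353 to 0.394]). Inside it, in 68 KO and 153 WT cells, it was at 967 CPM in KO and 2297 CPM in WT (0.421 [0.387 to 0.457]). Cxcl9 was at 11.6 CPM in KO and 162 CPM in WT outside (0.072), and Cxcl1 at 836 CPM in KO and 378 CPM in WT (2.21). Mrc1 was at 513 CPM in KO and 305 CPM in WT there (1.68). The direction of each was thus the same outside the set, as it was for Irf7 (0.454) and Ccl5 (0.341). The inflammatory monocyte list itself was near level outside the set, with a median of 0.070, but Ly6c2 and Plac8 chose that set.

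A split by the top 15% of Mrc1, F13a1 and Cbr2 gave other directions for some chemokines. Inside that set, in 115 KO and 43 WT selected cells, Ccl5 was at 87.1 CPM in KO and 20.9 CPM in WT (4.17 [2.19 to 8.91]). Cxcl2 was at 15328 CPM in KO and 17206 CPM in WT there (0.891 [0.869 to 0.914]), and Cxcl9 at 12.6 CPM in KO and 4.18 CPM in WT (3.02 [0.724 to 26.9]). Outside it, in 542 KO and 405 WT cells, the KO over WT ratio was 0.190 for Ccl5, 1.37 for Cxcl2 and 0.064 for Cxcl9. Isg15 was lower in KO inside (0.734) and outside (0.262), and Cxcl1 higher inside (2.02) and outside (2.56). In a split by H2-Aa, H2-Ab1 and Cx3cr1, these 5 genes kept their direction inside and outside the set, but not every gene did. Il1b had a KO over WT ratio of 0.894 [0.835 to 0.957] inside and 1.38 outside it. For Thbs1 it was 1.07 [0.936 to 1.22] inside and 1.62 outside.

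A few values stand apart from these groups. AC160336.1 (ENSMUSG00000115801, chr14:44544055-44637201, minus strand), a gene model known by its clone name, was at 4.41 CPM in KO and 243 CPM in WT selected cells, and at 3.90 CPM in KO and 383 CPM in WT other macrophages. Genotype, strain background and library cannot be told apart for this gap. The gene had at most 1 UMI in any KO selected cell, and it was detected in 35 KO and 306 WT cells. Col1a1, a collagen of fibroblasts, was at 213 CPM in KO and 89.0 CPM in WT selected cells. The upper bound on what free RNA gave of it was 83.4 CPM in KO and 30.8 CPM in WT, and 38.5% of its UMIs in KO and 64.2% in WT lay in 5 cells. The bound on free RNA in selected cells was 3.18% of their UMIs in KO and 2.34% in WT. It is an estimate without an interval, taken from the lowest of 16 markers in KO and 15 in WT. That marker was near the floor in both, Cldn5 at 1.13 CPM in KO and Dpt at 1.81 CPM in WT, so the bound may be too low.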

How the data were processed

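Both libraries were single-cell RNA-seq of injured muscle, 1 KO and 1 WT. The matrices the authors deposited hold whole-number UMI counts per gene and barcode, with no cell filter and no normalization, per the values in them. Per the submitters' processing notes, the build was GRCm38 and the tools included Seurat 4.0.1, STAR 2.7.8a and STARsolo 2.7.9a, while strand and counting settings are not stated there. The members and gene lists were chosen with earlier results of these data known. UMIs were summed over cells per library and scaled to CPM. Genes were counted with at least 50 CPM in 1 of the sums and at least 20 UMIs over both, leaving out mitochondrial, ribosomal protein, haemoglobin, immunoglobulin and Y-linked genes, Xist, and gene models named Gm with a number or ending in Rik. A call was past 1.5-fold on the CPM + 5 scale. With 1 library per group there was no test. Levels carry exact Poisson, shares Clopper-Pearson and ratios conditional binomial intervals at 95%, for counting error only. Shares of cells with a UMI used cells thinned to 5000 UMIs. Doublets were not removed, since the Scrublet threshold marked 0 KO cells and 1 WT cell, and the highest 5.42% of KO and 5.37% of WT scores were removed as an alternative only. Free RNA was taken from barcodes of 20 to 100 UMIs, and its bound from the lowest marker of other cell types. Genes named are the 12 highest and 12 lowest counted genes of KO against WT by the interval bound nearest to 1, the 12 highest and 12 lowest of selected against other macrophages by the lesser of that bound's distances from 1 in the 2 libraries, up to 6 of each list, the score genes and Setdb1, and not every such gene is reported here. Coordinates come from GENCODE M21, in which 55032 of 55487 gene IDs were found. Python 3.11.15, scipy 1.17.1, pandas 2.3.3 and scanpy 1.11.5 were used. The intervals and calls were checked only on simulated Poisson counts, the form the intervals assume, so that check could not show how they hold for real counts. Real cells varied more. The variance over the mean of thinned Cxcl2 counts was 88.6 in KO and 79.7 in WT selected cells, and the intervals leave this spread out.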

Additional observations from a re-analysis of the deposited data

Results flagged for a closer look

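Several genes differed in direction between the KO and WT libraries or between selected and other macrophages, with counting intervals on opposite sides of 1. None of these differences was tested, since each group had 1 library. In the ratio of selected over other macrophages, some interferon-stimulated genes stood below 1 in the KO library and above 1 in the WT library. Of the whole list, 6 of 27 counted were above 1 in KO and 20 of 40 in WT. Among those named above, this ratio was 0.951 in KO and 1.59 in WT for Isg15, 0.818 in KO and 1.22 in WT for Irf7, 0.794 in KO and 1.70 in WT for Isg20, and 0.626 in KO and 1.19 in WT for Phf11b. For Cxcl10 it was 0.796 in KO and 1.05 in WT, and for Cxcl9 0.261 in KO and 2.51 in WT, and Cxcl9 rested on few cells. Atf3, a stress-induced transcription factor, had 0.872 in KO and 1.29 in WT, and the gate gene Adgre1 1.05 in KO and 0.910 in WT.

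In the ratio of KO over WT, some genes turned between selected and other macrophages. Tnf was at 0.893 in selected and 1.29 in other macrophages, Spp1 at 0.946 in selected and 1.14 in other macrophages, Plaur at 0.905 in selected and 1.12 in other macrophages, and Atf3 at 0.900 in selected and 1.33 in other macrophages. Hes1 went the other way, with 1.61 in selected and 0.842 in other macrophages, and C1qa had 1.07 in selected and 0.970 in other macrophages. Ccl7, a monocyte chemokine, had 1.15 in selected and 0.902 in other macrophages. Lpl, lipoprotein lipase, turned in both comparisons. Its KO over WT ratio was 0.719 in selected and 1.19 in other macrophages, and its ratio of selected over other macrophages was 0.877 in KO and 1.45 in WT. S100a9 had 6.07 in selected and 0.470 in other macrophages, but 112 of its 122 UMIs in KO selected cells came from a single cell.

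Cells with a score above the cut but outside the macrophage definition were not used above. There were 100 in the KO and 81 in the WT library, and 54 KO and 65 WT of them had fewer than 3 UMIs of Csf1r, Adgre1 and Fcgr1. In these, the neutrophil genes summed to 518.3 CPM in KO and 2083.5 CPM in WT, against 83.4 CPM in KO and 77.6 CPM in WT selected macrophages. The dendritic cell genes summed to 561 CPM in KO and 855 CPM in WT there, against 58.7 CPM in KO and 62.1 CPM in WT selected macrophages. The fibro-adipogenic markers summed to 3048 CPM in KO and 878 CPM in WT there, against 622 CPM in KO and 411 CPM in WT selected macrophages.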

How the results depend on the processing

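The KO over WT ratio of the selected share ran from 1.23 to 1.345 over 12 other settings, among them deeper or shallower cells, each score gene left out and removal of the highest doublet scores. Outside the top 15% by Ly6c2 and Plac8 the shares were 16.4% in KO and 11.02% in WT. The count higher in KO was 49, and it was 31 with the top 25%, 24 with a pseudocount of 20 CPM, 141 with a minimum of 10 CPM and 176 with no minimum. The count lower in KO was 81, and 147 and 173 with those last 2 settings, which test more genes. Higher in selected cells of both libraries were 332 genes, and 531 and 559 with those settings. Lower there were 52, and 30 with cells thinned to 5000 UMIs before scoring, 94 with the top 10%, 23 with the top 25%, 31 with a pseudocount of 20 CPM, 136 with a minimum of 10 CPM and 152 with no minimum. Of the lists with at least 5 genes counted, those of other cell types left out, 5 had a KO over WT median beyond 0.25 in size, and 3 with the top 10% or with Slc7a11 left out of the score. The cause of these shifts was not tested except for the larger number of genes. Some values turned. The inflammatory monocyte median was 0.070 and the Ly6c2 ratio 1.01 outside the top 15% by Ly6c2 and Plac8, a set those genes define and that was added after the data were seen. Tnf had a ratio of 1.05 with the top 25%, and Spp1 one of 1.035 with thinned scoring, 1.05 with the top 25% and 1.08 without Il1rn in the score. Of 2514 other values, 1894 kept their size within the counting interval and direction, 614 moved and 6 turned. Depth limits genes under 50 CPM, and no value here measures the spread between animals. No paired analysis was possible because each group has 1 library and the labels give no replicate numbers.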

Other observations

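Single genes of further lists also stood higher in selected than in other macrophages. Of the cytokine signalling list, 9 of 14 genes counted were higher in each library, 5 of them past 1.5-fold, with median log2 ratios of 0.15 in KO and 0.22 in WT. Pim1, a kinase induced by cytokines, was 3.57-fold higher in selected cells of the KO library and 4.07-fold in those of the WT library. Csf2rb, the shared receptor chain for GM-CSF and IL-3, was 2.33-fold higher in KO and 2.34-fold in WT selected cells. Of the immediate early and heat shock list, 20 of 32 were higher in each library, 7 of them past 1.5-fold in KO and 9 in WT, and 3 were past it downward in KO and 4 in WT. Nr4a3, an orphan nuclear receptor of the immediate early genes, was 4.93-fold higher in KO and 5.28-fold in WT, and Dusp5, a phosphatase of ERK, 3.61-fold in KO and 4.66-fold in WT. Of the hypoxia and glycolysis list, 11 of 17 were higher in KO and 12 of 16 in WT, with medians of 0.17 in KO and 0.37 in WT. Hk2, a hexokinase, was 2.14-fold in KO and 1.95-fold in WT, and Tpi1, triosephosphate isomerase, 0.777-fold in KO and 0.879-fold in WT. Slc16a3, a lactate exporter, was 3.72-fold higher in KO and 4.65-fold in WT, and Ndrg1 3.92-fold in KO and 3.59-fold in WT. F10, coagulation factor X, was at 38.4 CPM in selected and 9.93 CPM in other KO macrophages, and at 48.7 CPM in selected and 10.8 CPM in other WT macrophages.

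Some low genes of the lists, chosen after their values were seen, rested on few cells. Retnla, resistin-like alpha, a gene of alternatively activated macrophages, was at 40.8 CPM in KO and 1.27 CPM in WT selected cells (32.2 [15.5 to 80.8]), and at 5.61 CPM in KO and 1.40 CPM in WT other macrophages. It was detected, unthinned, in 1.52% of KO and 0.670% of WT selected cells, against 1.29% of KO Pdgfra cells, so no difference was read from its shares. Il12b, a subunit of IL-12, was at 2.27 CPM in KO and 13.9 CPM in WT selected cells, and was detected in 0.609% of KO and 1.12% of WT ones.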
